A study of Sus scrofa with 22 samples.

Results

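The genes described are the forkhead (FOX), SOX, Krüppel-like (KLF) and GATA transcription factors expressed in pig endometrium on Day 12. Members were taken by symbol, after the NCBI Gene IDs of the count tables had been matched to the symbols of the Sscrofa11.1 annotation. This choice was made with earlier results of these data known. Of 12401 genes listed for at least 1 cell type, 40 were members: 16 of the 43 FOX, 8 of the 19 SOX, 14 of the 17 KLF and 2 of the 6 GATA symbols in that annotation. The other 45 symbols were listed for no cell type and were not analysed here, FOXA1, FOXM1, SOX9 and GATA3 among them. Of the 40 members, 37 were listed for LE, 39 for GE, 38 for S, and 35 for every cell type. FOXA2, FOXJ1 and GATA6 were listed for GE and S, FOXF1 for LE and GE, and SOX7 for LE.

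Cells of the luminal epithelium (LE), of the glands (GE, glandular epithelium) and of the stroma (S) had been cut by laser capture from stained frozen sections of the uterine lining of 8 gilts (crosses between the German Landrace and Piétrain breeds), and the RNA was sequenced. All gilts had been synchronised with gonadotropins (PMSG, then hCG). The 4 pregnant gilts had been inseminated with semen and the 4 control gilts with semen supernatant free of sperm, so that the control animals were cyclic and carried no conceptus. LE and GE each had 4 pregnant and 4 control libraries, and S had 3 of each. The paper describes the captured stromal areas as fibroblasts mixed with other cell types, mainly immune cells. Each library represents 1 gilt. The comparisons ask which endometrial compartment carries each factor and where its mRNA differs in the presence of conceptuses. The total of counts on listed genes per library ranged from 893912 to 4020796. Levels are given as CPM (a gene's count scaled to the library total), set on 1 scale over the 22 libraries by TMM factors, and 3 counts corresponded to between 0.746 and 3.36 CPM.

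Each of these protein families binds DNA through its own kind of domain: the forkhead box, the HMG box of SOX proteins, the zinc fingers of KLF proteins and the distinct zinc fingers of GATA proteins. In the uterus, FOXA2 is known from the glands, GATA2 from progesterone signalling, FOXO1 from stromal decidualisation, and SOX17 and KLF5 from the epithelium at implantation. FOXJ1 is the key factor of motile cilia, while SOX7, SOX18 and KLF2 are known from the endothelium. FOXO proteins are held out of the nucleus when AKT phosphorylates them, so that their mRNA is a partial measure of their activity.

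The labelled cell types were first set against marker genes. All 12 epithelial and all 12 fibroblast markers were listed for each cell type. Of 12 leukocyte markers, 6 were listed for LE, 5 for GE and 4 for S. In control gilts the epithelial markers summed to between 3356 and 3679 CPM in S and to between 3282 and 3950 CPM in LE. The fibroblast markers summed to between 5415 and 9454 CPM in control S, below the range of 13242 to 19056 CPM in control LE. In pregnant gilts the fibroblast sum was 9061 CPM in S of gilt 5 and 12462 CPM in S of gilt 14, below or within the range of 10044 to 25601 CPM in pregnant LE, and their epithelial sums were 4758 and 2861 CPM. All S libraries other than that of pregnant gilt 1 were thus not set apart as stroma by these markers, and S is used below as the label of those libraries. In control GE the epithelial markers summed to between 961 and 2862 CPM, below every control S library, with gilt 2 lowest. In pregnant GE they summed to between 2846 and 3809 CPM. Control GE was thus not set apart from S as epithelium by these markers, and GE is likewise used as a label. The 4 libraries with the highest fibroblast sums were pregnant S of gilt 1 with 65601 CPM, control GE of gilt 2 with 48941 CPM, pregnant GE of gilt 1 with 32770 CPM and pregnant LE of gilt 1 with 25601 CPM. These 4 were also the highest in blood endothelium markers, at 2107, 1427, 1187 and 1801 CPM in the same order. Only the member counts of the main fits, over gilts of both statuses, were repeated without them. In such tissue samples fewer cells of a type and less RNA per cell cannot be told apart.

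**Figure D1:**
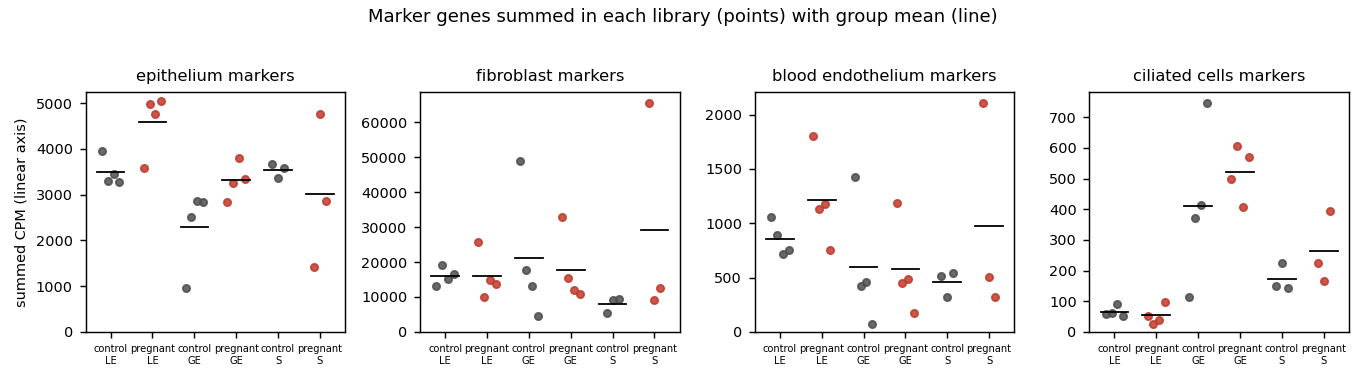
Summed CPM (linear axis) of the epithelial, fibroblast, blood endothelium and ciliated cell markers in each library (points) of the 6 groups on the x axis, with the group mean as a line. Control S lay with control LE in the epithelial panel, and pregnant S of gilt 1 had the highest fibroblast sum, 65601 CPM.

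In LE, 7 of 37 members differed between pregnant and control gilts at an FDR below 1%, where 10.0% of all 11415 genes tested did. FOXQ1, KLF5 and FOXN2 were higher in pregnant gilts, and GATA2, SOX12, SOX13 and FOXO3 were lower. Thus 3 members rose, where 6.33% of all genes did, and 4 fell, where 3.71% of all genes did. By family, 2 of 14 FOX members rose and 1 fell, 1 of 14 KLF members rose, 2 of 8 SOX members fell, and the only GATA member listed for LE fell. The median log2 difference over the members was 0.03, beside 0.01 over all genes. With library size alone in place of TMM the calls were 2 higher and 5 lower, because KLF5 was lost and SOX4 was gained.

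FOXQ1, a forkhead factor known from epithelial differentiation and hair follicles, had the largest difference of all members. The gene (Gene ID 100152843) has 1 exon and lies at chr7:664360-666401 on the plus strand of Sscrofa11.1. Its level in control LE was 1.08, 2.23, 2.78 and 5.23 CPM. In pregnant LE it was 44.4, 87.5, 141 and 155 CPM. Every pregnant library lay above every control library, and the lowest of them came from gilt 14. FOXQ1 rose by 5.22 ± 0.51 on the log2 scale (SE, n = 4 and 4; edgeR quasi-likelihood test, FDR 0.000139). FOXQ1 remained called in all 15 alternative analyses, with log2 differences of 4.95 to 5.67.

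GATA2, a zinc finger factor that acts with the progesterone receptor in the uterus, showed the largest decrease. Control LE libraries had 72.0, 76.7, 86.6 and 94.7 CPM. Pregnant LE libraries had 10.7, 12.6, 15.5 and 30.7 CPM. The groups did not overlap, and gilt 14 again lay closest to the controls. GATA2 fell by 2.18 ± 0.30 on the log2 scale (edgeR, FDR 0.000902). Its gene model at chr13:71981139-71997626 shares 26.3% of its exon bases with LOC102160340 on the opposite strand, which itself fell by 1.34 on the log2 scale in LE (FDR 0.00308). Whether the counting used strand is not given in the sources used here, so reads of these genes may not be fully separated.

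SOX12, which belongs to the same SOX group as SOX4 and is widely expressed in embryonic tissue, had 37.7, 47.1, 53.8 and 60.9 CPM in control LE. Its pregnant LE libraries had 8.54, 10.49, 11.9 and 15.0 CPM. The pregnant values were all far below the controls and close to each other. SOX12 fell by 2.12 ± 0.25 on the log2 scale (edgeR, FDR 0.000394). GATA2 and SOX12, like FOXQ1, were called in all 15 alternatives.

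SOX13, a SOX protein without a transactivation domain of its own, had 136, 138, 144 and 146 CPM in control LE. The pregnant LE libraries had 21.4, 29.4, 42.7 and 77.9 CPM. The controls were nearly equal, whereas the pregnant libraries were spread, with gilt 14 highest. SOX13 fell by 1.68 ± 0.33 on the log2 scale (edgeR, FDR 0.00558).

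FOXO3, a target of AKT known for stress resistance and cell cycle arrest, had 78.7, 80.6, 99.7 and 106 CPM in control LE. In pregnant LE it had 36.7, 40.5, 51.8 and 55.1 CPM, with no overlap. It fell by 0.98 ± 0.19 on the log2 scale (edgeR, FDR 0.00576).

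KLF5, known from proliferating epithelia and from the luminal epithelium at embryo attachment in mice, had 159, 169, 239 and 282 CPM in control LE. Its pregnant LE libraries had 340.4, 512, 531 and 743 CPM. All pregnant libraries were above the controls, the nearest being gilt 1. It rose by 1.32 ± 0.27 on the log2 scale (edgeR, FDR 0.00686).

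FOXN2, a forkhead factor with few known roles, had 26.8, 37.6, 39.1 and 39.4 CPM in control LE and 60.7, 75.5, 79.7 and 89.3 CPM in pregnant LE. The groups were well apart. FOXN2 rose by 1.08 ± 0.19 on the log2 scale (edgeR, FDR 0.00341).

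These latter 4 calls depended on single libraries. FOXN2 was lost without any of the control libraries or without pregnant gilt 5, and KLF5 without control gilt 2, 4 or 6 or pregnant gilt 3 or 5. SOX13 was lost without any control library or without pregnant gilt 3 or 5. FOXO3 was lost without any 1 library other than that of pregnant gilt 14. Of the 4 libraries highest in fibroblast markers only that of pregnant gilt 1 is from LE. For LE, leaving out these 4 is thus the fit without pregnant gilt 1 (FOXO3, edgeR FDR 0.0106). The 15 alternatives hold this fit under both names. All 4 kept their direction in every alternative. Calls over all genes also fell, from 1146 to between 588 and 684, without any 1 control LE library. Without pregnant gilt 1, 3, 5 or 14 they were 1154, 905, 664 and 1643.

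**Figure D2:**
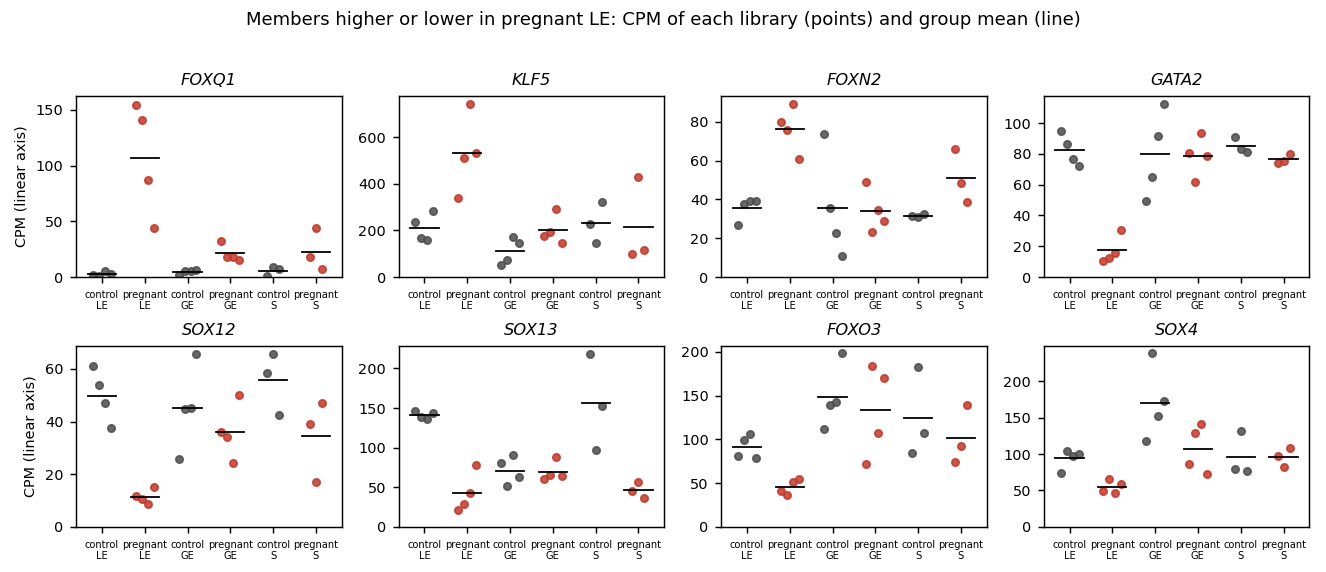
CPM (linear axis) of 8 members in each library (points) of the 6 groups on the x axis, with the group mean as a line. In pregnant LE the libraries of FOXQ1, KLF5 and FOXN2 lay above all control LE libraries and those of GATA2, SOX12, SOX13, FOXO3 and SOX4 below them.

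The sequence around the annotated start of FOXQ1, and of the 3 SOX and GATA members with the largest decreases in LE, is shown because these members changed most with pregnancy. Each window holds 250 bases before and 50 bases after the gene start, read from the Sscrofa11.1 genome of RefSeq on the strand of the gene. Capitals mark matches on either strand. The letters searched were CACCC, which is known as a site of KLF proteins, and GGGCGG, which is known from both KLF and SP proteins. AGATAA was searched for the GATA family, TGTTTAC for the forkhead family, ATTGTT for the SOX family, and CCTTTGT as a further form of SOX site. Matches to different motifs may share bases. The windows are chr7:664110-664409 (plus strand) for FOXQ1, chr13:71980889-71981188 (plus) for GATA2, chr17:34858385-34858684 (minus) for SOX12 and chr9:64745512-64745811 (plus) for SOX13.
FOXQ1: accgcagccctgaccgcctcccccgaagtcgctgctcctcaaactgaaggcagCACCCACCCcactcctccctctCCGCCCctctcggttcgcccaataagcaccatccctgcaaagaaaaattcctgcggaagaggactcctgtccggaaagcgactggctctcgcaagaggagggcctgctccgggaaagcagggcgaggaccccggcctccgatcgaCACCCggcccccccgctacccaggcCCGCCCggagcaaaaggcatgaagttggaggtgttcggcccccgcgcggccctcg
GATA2: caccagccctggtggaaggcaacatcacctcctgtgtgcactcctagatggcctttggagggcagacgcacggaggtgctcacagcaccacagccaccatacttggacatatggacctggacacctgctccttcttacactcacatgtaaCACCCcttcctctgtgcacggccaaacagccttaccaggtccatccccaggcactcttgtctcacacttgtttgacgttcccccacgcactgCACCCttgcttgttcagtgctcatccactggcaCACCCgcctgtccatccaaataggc
SOX12: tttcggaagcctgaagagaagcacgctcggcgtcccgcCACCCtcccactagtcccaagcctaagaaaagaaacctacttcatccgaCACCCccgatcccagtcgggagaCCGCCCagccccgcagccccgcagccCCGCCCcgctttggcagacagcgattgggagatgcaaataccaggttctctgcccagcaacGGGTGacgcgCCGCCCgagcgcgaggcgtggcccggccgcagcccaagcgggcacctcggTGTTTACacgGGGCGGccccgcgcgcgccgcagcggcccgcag
SOX13: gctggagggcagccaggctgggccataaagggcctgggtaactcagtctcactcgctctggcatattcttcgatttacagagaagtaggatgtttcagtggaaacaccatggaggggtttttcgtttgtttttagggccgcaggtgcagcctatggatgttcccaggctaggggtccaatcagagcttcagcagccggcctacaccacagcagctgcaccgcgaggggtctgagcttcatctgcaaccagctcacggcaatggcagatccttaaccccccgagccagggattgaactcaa
CACCC occurred 3 times in each of the FOXQ1, GATA2 and SOX12 windows and 0 times in that of SOX13. GGGCGG occurred 2 times for FOXQ1, 4 times for SOX12 and 0 times for GATA2 and SOX13. SOX12 also held 1 TGTTTAC. A match is a run of letters and was not tested as a binding site. Over the members, 28 of 40 windows held CACCC and 30 of 40 held GGGCGG, beside 61.4% and 62.6% of 11809 promoter windows of listed genes. TGTTTAC was found in 4 member windows (FOXF1, FOXO3, FOXO4 and SOX12) and in 2.58% of all windows, AGATAA in 1 (SOX4) and 6.84%, ATTGTT in 1 (KLF12) and 6.32%, and CCTTTGT in 2 (KLF7 and KLF10) and 4.02%.

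Several members lay just outside the threshold in LE. SOX4, a SOX factor of progenitor cells, had 74.3, 97.6, 99.98 and 105 CPM in control LE and 46.0, 49.98, 59.1 and 66.1 CPM in pregnant LE. Its groups did not overlap, at a log2 difference of -0.77 ± 0.18 (edgeR, FDR 0.0141). KLF15, a factor induced by glucocorticoids that acts in fuel metabolism, had 8.17, 8.87, 10.4 and 12.5 CPM in control LE and 1.19 (1 count), 4.20, 4.27 and 5.01 CPM in pregnant LE. Its groups did not overlap either, at -1.32 ± 0.37 on the log2 scale (edgeR, FDR 0.0278). Both were called by the Wald test of DESeq2, at adjusted p-values of 0.00125 for SOX4 and 0.00889 for KLF15. Over all genes DESeq2 called 2182 in LE, beside 1146 in the main fit.

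KLF4, a factor of epithelial differentiation, turned on 1 library. Control LE libraries had 69.9, 72.5, 101 and 114 CPM. Pregnant LE libraries had 15.7, 17.2 and 34.1 CPM in gilts 3, 14 and 5, and 120.2 CPM in gilt 1, the library with the fewest counts and the highest fibroblast sum in LE. With it the log2 difference was -1.06 ± 0.56 (edgeR, FDR 0.211). Without it KLF4 fell by 1.98 on the log2 scale (edgeR, FDR 0.00265). KLF4 shares 8.72% of its 50-base windows with other gene models, so a part of its reads may belong elsewhere.

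FOXO1 had 214, 279.6, 296 and 302 CPM in control LE and 166, 403, 477 and 548 CPM in pregnant LE, where gilt 14 lay below all controls and the others above. SOX17 had 289, 331, 345 and 398 CPM in control LE and 327, 459, 494 and 576 CPM in pregnant LE, overlapping only through gilt 14. Neither passed the test (log2 differences 0.54 ± 0.31 and 0.44 ± 0.20, edgeR FDR 0.252 and 0.143).

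The members known from the endothelium did not pass the test in LE. SOX18 had 6.97, 11.8, 14.9 and 18.3 CPM in control LE and 12.5, 18.4, 24.7 and 38.1 CPM in pregnant LE, the highest in gilt 1. KLF2 had 22.3, 30.4, 38.7 and 39.0 CPM in control LE and 13.8, 29.4, 44.2 and 51.2 CPM in pregnant LE, again highest in gilt 1. SOX7, listed only for LE, had 4.53, 5.55, 5.94 and 7.53 CPM in control LE and 7.14, 11.0, 12.2 and 15.7 CPM in pregnant LE (log2 difference 0.98 ± 0.32, edgeR FDR 0.0505). Blood endothelium markers summed to between 718 and 1056 CPM in control LE and between 752 and 1801 CPM in pregnant LE. The part of these markers in the levels of SOX7, SOX18 and KLF2 was not tested.

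KLF9, a partner of the progesterone receptor in the endometrium, and KLF13, its close relative, have gene models that hold coding sequence only, so their CPM values rest on few exon bases. KLF9 had 2.79, 4.57, 7.43 and 10.6 CPM in control LE and 7.82, 9.45, 11.9 and 27.8 CPM in pregnant LE, and the groups overlapped. KLF13 had 5.32, 7.80, 11.5 and 12.2 CPM in control LE and 6.30, 7.62, 8.14 and 9.52 CPM in pregnant LE. The log2 differences of 1.12 ± 0.51 and -0.23 ± 0.35 did not pass the test (edgeR, FDR 0.146 and 0.670). KLF10 and KLF11, early genes of the TGF-beta response, also missed the threshold. KLF10 had 71.2, 71.5, 88.8 and 97.2 CPM in control LE and 91.6, 103, 148 and 215 CPM in pregnant LE, with overlap through gilt 1. KLF11 had 22.4, 25.3, 26.8 and 34.9 CPM in control LE and 10.4, 14.2, 16.3 and 25.0 CPM in pregnant LE. The log2 differences were 0.77 ± 0.27 for KLF10 and -0.80 ± 0.28 for KLF11 (edgeR, FDR 0.0632 and 0.0691).

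Of the remaining members in LE, FOXP1 (log2 difference 0.87), KLF7 (0.62), FOXP4 (0.59), FOXJ3 (0.49), SOX6 (0.46), KLF6 (0.40), KLF12 (0.32) and KLF8 (0.27) had higher means in pregnant gilts. FOXJ2 (-0.75), SOX5 (-0.62), FOXK1 (-0.56), KLF16 (-0.29) and FOXS1 (-0.22) had lower means. KLF3, FOXK2, FOXO4, FOXN3 and FOXF1 were between -0.14 and 0.03. None of these passed the test in edgeR at an FDR below 1%, although the groups of FOXJ2, FOXJ3 and SOX5 did not overlap. FOXF1 shares 81.0% of its exon bases with MTHFSD on the opposite strand, so its level is uncertain throughout.

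In GE and S the cut-off (unadjusted p below 0.0021) was looser than that for LE. In GE, 1 of 39 members passed it, where 0.694% of 11676 genes did and 0.574% were higher. This was FOXQ1. Its level was 2.003, 5.40, 5.62 and 6.22 CPM in control GE and 15.4, 18.2, 18.3 and 32.5 CPM in pregnant GE. The groups did not overlap, and pregnant gilt 1 stood above the rest. The log2 difference was 2.12 ± 0.40 (edgeR, FDR 0.189). It passed the same cut-off when any single library was left out, and without the libraries of gilt 1 and control gilt 2 it was 1.59.

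The members that fell in LE had overlapping groups in GE. GATA2 had 49.7, 65.3, 91.6 and 112 CPM in control GE and 61.8, 78.4, 80.6 and 93.4 CPM in pregnant GE. SOX12 had 25.6, 44.7, 45.2 and 65.7 CPM in control GE and 24.4, 34.0, 36.0 and 50.1 CPM in pregnant GE. SOX13 had 51.1, 62.5, 80.1 and 90.2 CPM in control GE and 60.6, 63.7, 65.2 and 87.9 CPM in pregnant GE. The log2 differences of GATA2, SOX12 and SOX13 were -0.02 ± 0.27, -0.32 ± 0.32 and -0.04 ± 0.23. FOXO3 had 112, 139, 143 and 199 CPM in control GE and 72.1, 108, 170.5 and 184 CPM in pregnant GE. KLF5 had 53.3, 73.1, 146 and 172 CPM in control GE and 145, 174, 192 and 292 CPM in pregnant GE, at a log2 difference of 0.86 ± 0.39 (edgeR, FDR 0.628). All groups of these genes overlapped in GE. FOXN2 had 10.8, 22.8, 35.3 and 73.7 CPM in control GE and 23.2, 28.7, 34.6 and 49.0 CPM in pregnant GE. FOXN3, a forkhead repressor, had 195, 201, 247 and 277 CPM in control GE and 117, 139, 157 and 169.6 CPM in pregnant GE, without overlap. Its log2 difference was -0.66 ± 0.19 (edgeR, FDR 0.425), and it passed the cut-off only in DESeq2 (adjusted p 0.0869). DESeq2 called 241 of all genes in GE, beside 81 in the main fit. The smallest and largest log2 differences among the members of GE were -1.35 (KLF11) and 2.12 (FOXQ1), with a median of -0.20 over the members and -0.02 over all genes.

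In S, 1 of 38 members passed the cut-off (unadjusted p below 0.0021), where 1.47% of 11532 genes did and 1.05% were lower. This was SOX13, with 96.998, 153 and 218 CPM in control S and 36.6, 45.2 and 57.2 CPM in pregnant S. The groups did not overlap. SOX13 fell by 1.72 ± 0.37 on the log2 scale (n = 3 and 3; edgeR, FDR 0.135). It passed the cut-off without control gilt 4 and failed it without any of the other libraries. Markers of other cell types were also higher in pregnant S. All 12 fibroblast markers (median log2 difference 1.61) and all 11 listed blood endothelium markers (0.99) had higher means, and 0 of either list were called. The 5 lymphatic endothelium markers were all higher (median 4.51) and MMRN1 and LYVE1 were called, with sums of 7.185 to 15.4 CPM in control S and 32.4 to 311 CPM in pregnant S, and MMRN1 at 0 in all 3 control S libraries. Gilt 1 was highest in each of these lists. The part of these markers in the S results was not tested.

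FOXQ1 had 0.770 (2 counts), 6.90 and 9.28 CPM in control S and 7.27, 17.6 and 43.7 CPM in pregnant S, with overlap. Its log2 difference of 2.04 ± 0.89 did not pass (edgeR, FDR 0.409). KLF15 had 7.32, 12.7 and 19.8 CPM in control S and 19.5, 36.8 and 46.0 CPM in pregnant S (log2 difference 1.40 ± 0.47, FDR 0.298). Its highest control and lowest pregnant libraries crossed. GATA2 had 81.0, 83.5 and 90.9 CPM in control S and 74.4, 75.4 and 79.6 CPM in pregnant S, a narrow gap at a log2 difference of -0.12 ± 0.20. SOX12 had 42.5, 58.6 and 65.9 CPM in control S and 17.2, 39.1 and 47.2 CPM in pregnant S. FOXS1, a forkhead gene of pericytes, was called only when pregnant gilt 5 was left out (log2 difference 2.10, edgeR FDR 0.103). SOX18 had 5.15, 7.28 and 50.6 CPM and KLF2 had 14.9, 17.0 and 95.9 CPM in pregnant S. Both were highest in gilt 1, the library with the highest fibroblast and blood endothelium sums. FOXN2 had 30.8, 31.2 and 32.7 CPM in control S and 38.5, 48.6 and 65.9 CPM in pregnant S, without overlap (log2 difference 0.72 ± 0.28, edgeR FDR 0.365). FOXO3 had 84.4, 107 and 183 CPM in control S and 73.6, 92.3 and 139 CPM in pregnant S.

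**Figure D3:**
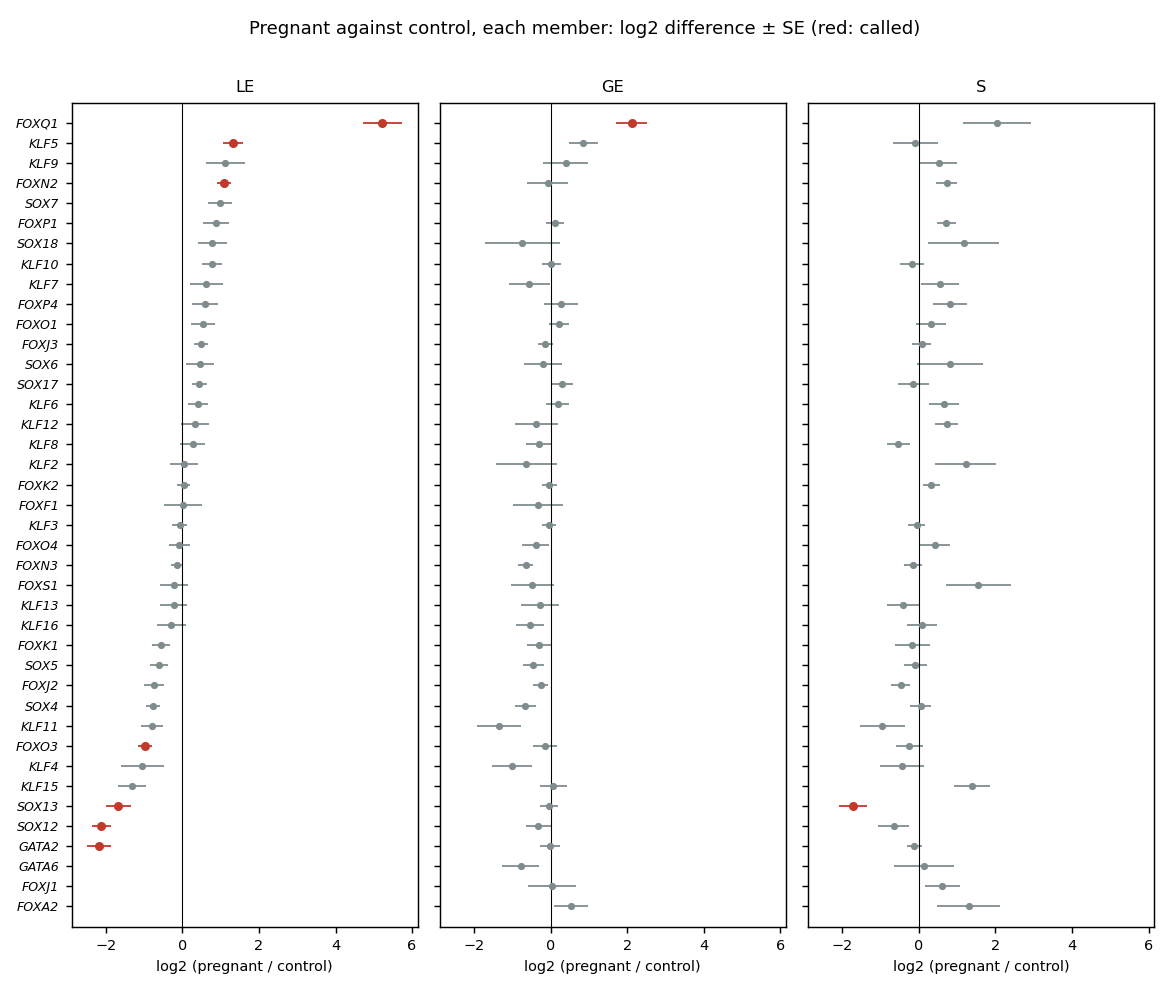
Log2 difference between pregnant and control gilts (x axis, ± SE) of each member (y axis, ordered by LE) in LE, GE and S, with the called members in red. FOXQ1 lay to the right in all 3 panels, at 5.22, 2.12 and 2.04, and GATA2 and SOX12 lay at -2.18 and -2.12 in LE.

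Whether the difference with pregnancy itself differed between cell types was tested by interaction terms. Between GE and LE it differed for 4 of 35 members at an FDR below 5%, where 2.93% of 10643 genes did, 1.47% in each direction. The effect on GATA2 was 2.26 ± 0.38 higher on the log2 scale in GE than in LE (edgeR, FDR 0.00941). SOX13 (1.77 ± 0.40, FDR 0.0309) and SOX12 (1.76 ± 0.38, FDR 0.0268) differed in the same direction, and all 3 fell in LE. The effect on FOXQ1 was 3.03 ± 0.72 lower in GE than in LE (log2 interaction -3.03, FDR 0.0399). GATA2 was lost only without gilt 4, whereas SOX12 kept its call in 1, SOX13 in 2 and FOXQ1 in 2 of the 8 fits that left out a gilt. Without the gilt as a block, 1 of the 4 calls was made, and without the 4 libraries high in fibroblast markers 2 were made. Over all genes these fits called 43 and 261, beside 312 in the main fit.

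Between S and LE the effect of pregnancy differed for 0 of 35 members in edgeR at an FDR below 5%, where 0.0470% of all genes passed. At an unadjusted p below 0.05 there were 8, where 1622 of all 10643 genes passed. DESeq2 called 4 (FOXQ1, GATA2, KLF15 and KLF5), where it called 305 of all genes. The interaction was 2.80 ± 0.53 for KLF15 (edgeR, FDR 0.0661), 1.96 ± 0.42 for GATA2 (FDR 0.0954) and -3.37 ± 0.82 for FOXQ1 (FDR 0.121).

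Between the epithelial compartments, averaged over pregnant and control gilts with the gilt as a block, 19 of 35 members differed at an FDR below 5%. Of all 10643 genes, 35.2% did. In GE, 13 members were higher, where 16.9% of all genes were, and 6 were lower, where 18.3% were. Among the called members, the largest positive differences were those of KLF15, SOX6, FOXP4, KLF6 and FOXO3, and the largest negative ones those of KLF5, KLF10, KLF8, SOX17 and KLF11. By family, 6 FOX members were higher and 1 lower, 4 SOX members higher and 1 lower, 2 KLF members higher and 4 lower, and GATA2 was higher.

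KLF15 had 25.3, 27.6, 59.9 and 61.1 CPM in control GE and 31.4, 39.0, 52.2 and 58.5 CPM in pregnant GE. Every GE library was above every LE library listed above. The log2 difference was 2.74 ± 0.24 (edgeR, FDR 3.4e-05). SOX6, a SOX protein of cartilage and muscle that pairs with SOX5, had 36.0, 71.7, 81.9 and 93.8 CPM in control GE and 30.0, 38.4, 43.6 and 132 CPM in pregnant GE. In LE it had 6.72, 7.17, 7.80 and 11.2 CPM in controls and 5.79, 10.49, 13.1 and 16.3 CPM in pregnant gilts. The compartments did not overlap, and the log2 difference was 2.70 ± 0.36 (edgeR, FDR 0.000169).

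FOXP4, a forkhead repressor of developing airway epithelium, had 17.7, 19.6, 24.1 and 57.3 CPM in control GE and 23.3, 24.0, 38.9 and 56.4 CPM in pregnant GE. In LE it had 6.72, 7.32, 9.26 and 14.9 CPM in controls and 11.5, 11.9, 12.8 and 20.1 CPM in pregnant gilts. The log2 difference was 1.41 ± 0.28 (edgeR, FDR 0.00189), and GE was higher in 8 of 8 gilts. KLF6, a ubiquitous factor induced by injury, had 65.2, 141, 145 and 178 CPM in control GE and 111, 150.1, 164 and 176 CPM in pregnant GE. Its LE libraries had 45.3, 46.0, 59.2 and 59.8 CPM in controls and 48.5, 50.7, 73.4 and 113 CPM in pregnant gilts. The log2 difference was 1.19 ± 0.19 (edgeR, FDR 0.000434), with GE higher in 8 of 8 gilts.

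FOXO3 was 1.08 ± 0.17 higher in GE on the log2 scale (edgeR, FDR 0.000452), in 8 of 8 gilts. SOX4 had 117, 153, 173 and 239 CPM in control GE and 72.8, 87.1, 129 and 141 CPM in pregnant GE, at a log2 difference from LE of 0.88 ± 0.14 (edgeR, FDR 0.000548), in 8 of 8 gilts. FOXO1 had 257, 423, 471 and 581 CPM in control GE and 417, 449, 500.4 and 626 CPM in pregnant GE. It was 0.54 ± 0.19 higher than in LE (edgeR, FDR 0.0356), in 5 of 8 gilts. FOXO4 (0.82), FOXP1 (0.88), SOX5 (0.42) and FOXN3 (0.24) were also called higher in GE. Averaged over all gilts, all 3 listed FOXO genes were thus called higher in GE than in LE, where 16.9% of all genes were. Within 1 status they were not all called. FOXO3 was called in pregnant gilts only, FOXO4 in control gilts only and FOXO1 in neither (edgeR, FDR 0.121 in control and 0.229 in pregnant gilts).

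GATA2 and SOX12 differed between GE and LE in pregnant gilts and had values near 0 in control gilts. Averaged over all gilts they were 1.06 ± 0.19 and 0.75 ± 0.19 (edgeR, FDR 0.000983 and 0.00848). In pregnant gilts alone they were 2.19 and 1.63, and in control gilts alone -0.08 and -0.13. Values and calls for gilts of 1 status, above and below, are contrasts within the joint fit and share its spread over all 22 libraries. FOXJ3 (0.02 in control gilts) and FOXN3 (-0.02 in pregnant gilts) also had the opposite sign of their average in 1 of the groups.

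KLF5 was 1.22 ± 0.22 lower in GE than in LE on the log2 scale (log2 difference -1.22, edgeR, FDR 0.000959), in 7 of 8 gilts. KLF10 had 41.2, 41.9, 63.7 and 77.6 CPM in control GE and 49.1, 56.2, 57.4 and 64.1 CPM in pregnant GE. It was lower in GE at -0.92 ± 0.18 (edgeR, FDR 0.00179). KLF8, a repressor that binds CACCC letters, had 26.2, 35.2, 35.7 and 36.0 CPM in control LE and 15.5, 35.1, 46.3 and 58.5 CPM in pregnant LE, the lowest in gilt 1. It had 11.09, 24.4, 31.4 and 34.9 CPM in control GE and 18.2, 18.9, 21.0 and 23.5 CPM in pregnant GE. Its log2 difference was -0.68 ± 0.19 (edgeR, FDR 0.0120).

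SOX17 had 138, 239, 264 and 302 CPM in control GE and 195, 279, 291 and 379.8 CPM in pregnant GE. Its log2 difference from LE was -0.65 ± 0.21 (edgeR, FDR 0.0277), with GE lower in 7 of 8 gilts. KLF11 had 6.76, 22.1, 26.0 and 39.6 CPM in control GE and 3.49, 8.40, 11.4 and 14.01 CPM in pregnant GE. Its log2 difference was -0.64 ± 0.23 (edgeR, FDR 0.0408). FOXJ3 was also called, at -0.29. The calls of FOXJ3, FOXN3, FOXO1, KLF8, KLF11, SOX5 and SOX17 were lost without 1 or more single gilts, and the other 12 calls were made in all 8 fits without a gilt.

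Not called between GE and LE were FOXJ2, FOXK1, FOXK2, FOXN2, FOXQ1, FOXS1, KLF2, KLF3, KLF4, KLF7, KLF9, KLF12, KLF13, KLF16, SOX13 and SOX18. KLF4 had 20.8, 43.2, 64.5 and 87.1 CPM in control GE and 16.4, 18.3, 18.9 and 53.0 CPM in pregnant GE (log2 difference from LE -0.67 ± 0.26, edgeR FDR 0.0577). KLF9 had 1.47 (3 counts), 5.06, 7.30 and 16.03 CPM in control GE and 7.35, 9.31, 10.2 and 13.01 CPM in pregnant GE. KLF13 had 3.44, 6.49, 7.87 and 10.4 CPM in control GE and 3.09, 4.07, 6.30 and 10.51 CPM in pregnant GE. SOX18 had 0.270 (1 count), 12.8, 15.2 and 40.5 CPM in control GE and 4.20, 6.40, 7.72 and 23.5 CPM in pregnant GE. KLF2 had 8.11, 24.7, 31.4 and 101 CPM in control GE and 7.001, 19.2, 21.6 and 60.6 CPM in pregnant GE. For both SOX18 and KLF2 the highest libraries were control gilt 2 and pregnant gilt 1, which were also highest in blood endothelium markers among the GE libraries (1427 and 1187 CPM). SOX13 was lower in GE of control gilts (log2 difference -1.03, FDR 0.0301) but not of pregnant gilts (0.74, not called). In pregnant gilts alone FOXQ1 (-2.24, edgeR FDR 0.00238) and FOXN2 (-1.22, FDR 0.0262) were called lower in GE, whereas in control gilts alone they were at 0.79 and -0.21 and were not called. FOXN2 was also called over all gilts by DESeq2 (4203 of all genes) and without gilt 2 (3980 of all genes). FOXF1, compared over the 10851 genes listed for both LE and GE, differed by -0.20 ± 0.30 (edgeR, FDR 0.643), where 30.9% of those genes were called. When the contrast of the joint fit was taken for control or for pregnant gilts, 10 members (11.7% of all genes) and 15 members (29.5% of all genes) were called.

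**Figure D4:**
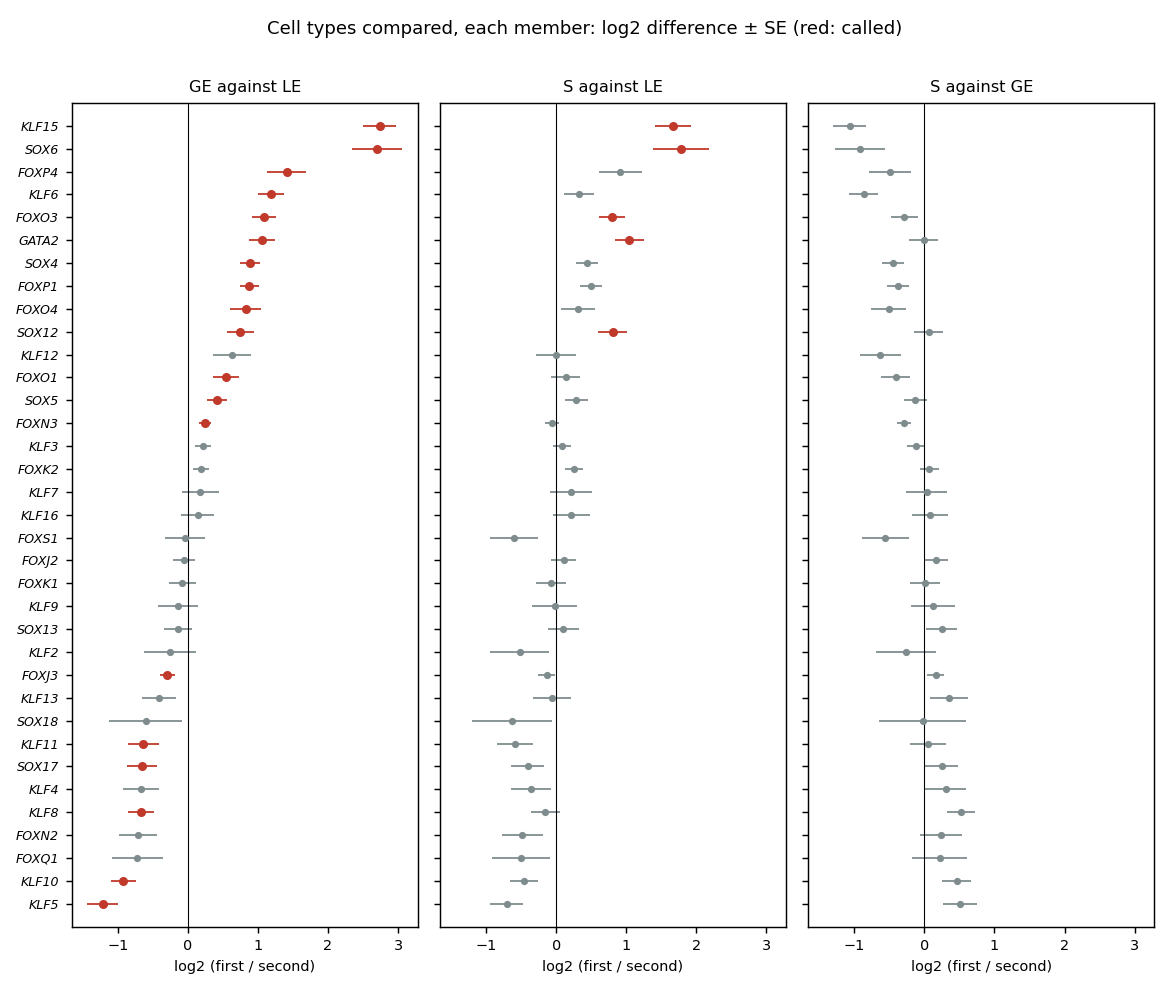
Log2 difference between cell types (x axis, ± SE) of the 35 members listed for all of them (y axis, ordered by GE against LE), with the called members in red. KLF15 and SOX6 lay farthest to the right in GE against LE, at 2.74 and 2.70, and no member was called in S against GE.

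Between S and LE, 5 of 35 members differed at an FDR below 5%, where 8.04% of all 10643 genes did. All 5 were higher in S, where 5.78% of all genes were, and 0 were lower, where 2.26% were. KLF15 had the log2 difference 1.67 ± 0.26 (edgeR, FDR 0.00383), with the S values given above. SOX6 had 5.39, 23.2 and 64.7 CPM in control S and 25.3, 28.1 and 104 CPM in pregnant S, at 1.78 ± 0.40 (edgeR, FDR 0.0198). GATA2 was at 1.04 ± 0.21 (FDR 0.0104), SOX12 at 0.81 ± 0.21 (FDR 0.0346) and FOXO3 at 0.80 ± 0.19 (FDR 0.0228). Among control gilts alone 0 members were called in edgeR (0% of all genes, 2 members at an unadjusted p below 0.05), and among pregnant gilts alone 9 members were called (14.6% of all genes), 6 higher and 3 lower. The lower ones in pregnant gilts were FOXQ1 (-2.19), KLF5 (-1.56) and KLF10 (-0.996). KLF15, GATA2 and SOX12 differed between S and LE by 0.27, 0.06 and 0.14 on the log2 scale in control gilts and by 3.07, 2.02 and 1.47 in pregnant gilts, while SOX6 was at 1.52 and 2.03. The control S libraries of gilts 2 and 13 had 5.39 and 23.2 CPM of SOX6, and that of gilt 4 had 64.7 CPM. Without gilt 4 or gilt 14 SOX6, SOX12 and FOXO3 were no longer called. GATA2 was lost without gilt 4 and SOX12 also without gilt 1.

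Between S and GE, 0 of 35 members and 0% of all 10643 genes were called in edgeR at an FDR below 5%. At an unadjusted p below 0.05 there were 8 members, where 1410 of the 10643 genes passed. DESeq2 called 2 members, KLF15 (log2 difference -1.07, adjusted p 0.00547) and KLF6 (-0.86, adjusted p 0.0108), where it called 302 of all genes. KLF6 had 45.5, 65.4 and 87.1 CPM in control S and 55.7, 123 and 125 CPM in pregnant S. In control gilts alone KLF15 was also called in edgeR (-1.76, FDR 0.0363), where 1.37% of all genes were. KLF15, KLF6 and SOX6 were lower in S than in GE in 6 of 6 gilts.

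FOXA2, the factor of uterine glands, had 16.4, 40.7, 59.9 and 78.1 CPM in control GE and 45.0, 57.3, 71.0 and 107 CPM in pregnant GE. The libraries labelled S had 11.2, 12.0 and 62.3 CPM in controls and 24.5, 47.3 and 131 CPM in pregnant gilts, so that S reached the levels of GE in gilts 4 and 14. FOXA2 was listed for S and not for LE. FOXJ1 had 8.41, 32.4, 39.3 and 105 CPM in control GE and 28.4, 32.3, 63.6 and 65.2 CPM in pregnant GE. In S it had 7.32, 16.3 and 22.5 CPM in controls and 15.2, 26.1 and 27.6 CPM in pregnant gilts, lower than GE in 6 of 6 gilts. The ciliated cell markers, of which 13 of 14 were listed for GE, 7 for S and 5 for LE, summed to 746 CPM in control GE of gilt 13 and to 115 CPM in that of gilt 2, the libraries with the highest and lowest FOXJ1. GATA6, a factor of endoderm and of vascular muscle, had 7.03, 8.43, 14.2 and 27.6 CPM in control GE and 5.95, 6.40, 8.51 and 12.4 CPM in pregnant GE. In S it had 1.93, 6.17 and 7.78 CPM in controls and 1.99, 5.15 and 10.7 CPM in pregnant gilts. Over the 11124 genes listed for both S and GE, the log2 differences were -0.63 ± 0.36 for FOXA2, -0.98 ± 0.35 for FOXJ1 and -0.95 ± 0.51 for GATA6, none called in edgeR (FDR 0.550, 0.348 and 0.521), as were 0% of those genes, though FOXJ1 had an unadjusted p of 0.0264.

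**Figure D5:**
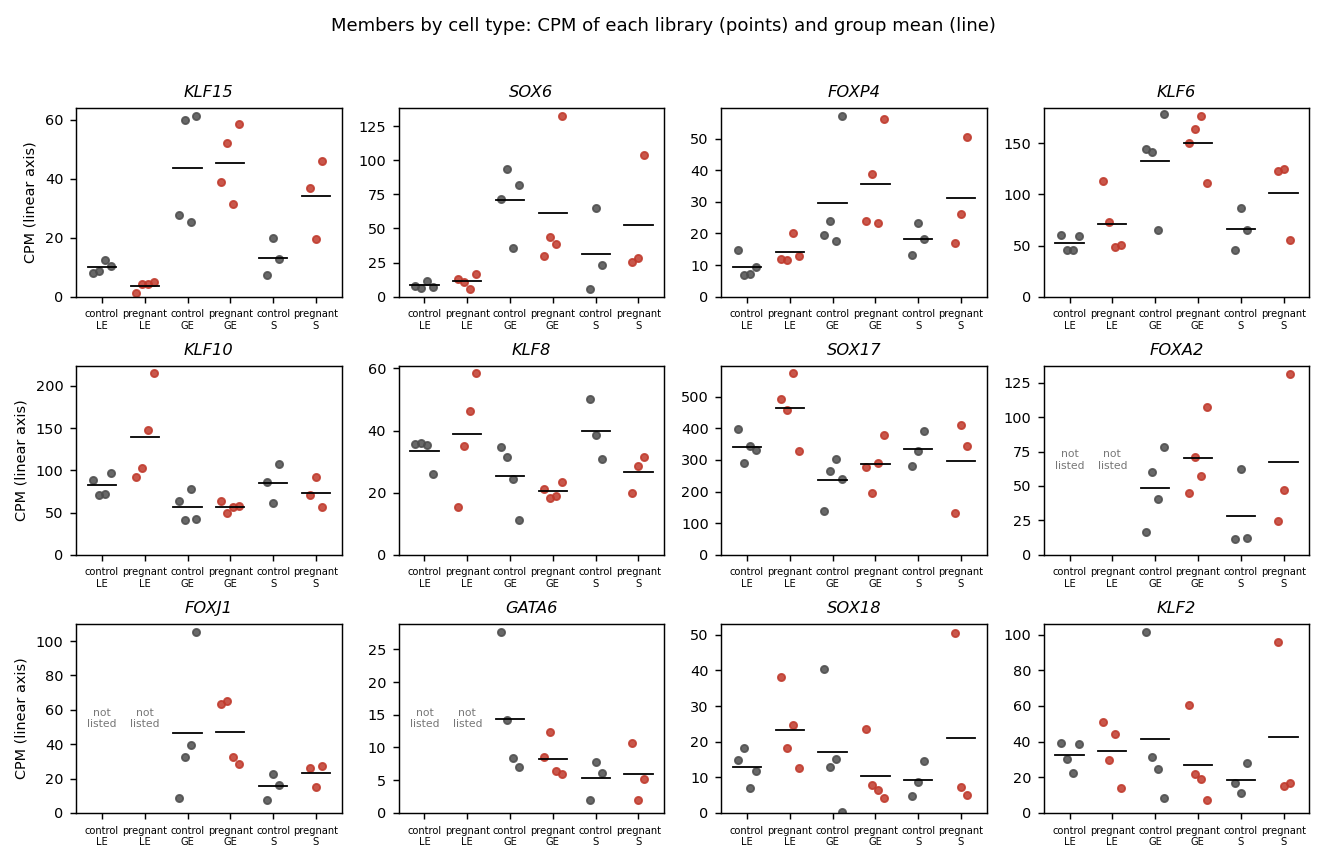
CPM (linear axis) of 12 members in each library (points) of the 6 groups on the x axis, with the group mean as a line. KLF15 and SOX6 were higher in every GE library than in any LE library, and FOXA2, FOXJ1 and GATA6 were not listed for LE.

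The other members described by library had overlapping groups in S throughout. KLF5 had 145, 228 and 324 CPM in control S and 99.7, 116 and 429 CPM in pregnant S. SOX17 had 281, 328 and 391 CPM in control S and 133, 343 and 412 CPM in pregnant S, and FOXO1 had 272, 339 and 344 CPM in control S and 204, 368 and 586 CPM in pregnant S. In pregnant S, KLF5 and SOX17 were lowest in gilt 1, and KLF5, SOX17 and FOXO1 were highest in gilt 5. SOX4 had 76.6, 79.0 and 132 CPM in control S and 81.7, 97.4 and 108 CPM in pregnant S. FOXP4 had 13.1, 18.2 and 23.4 CPM in control S and 16.9, 26.1 and 50.6 CPM in pregnant S. KLF10 had 61.4, 85.9 and 107 CPM in control S and 56.9, 71.3 and 92.0 CPM in pregnant S, again highest in gilt 5. KLF8 had 30.9, 38.6 and 50.1 CPM in control S and 19.9, 28.5 and 31.5 CPM in pregnant S. KLF4 had 31.6, 64.1 and 70.8 CPM in control S and 17.5, 28.2 and 73.6 CPM in pregnant S, highest in gilt 1. KLF11 had 15.0, 17.1 and 25.4 CPM in control S and 4.96, 6.06 and 19.2 CPM in pregnant S, and gilt 1 was again the highest. KLF4 and KLF11 thus shared the library that stood high. KLF9 had 5.81, 5.99 and 10.8 CPM in control S and 6.97, 11.2 and 13.8 CPM in pregnant S. KLF13 had 6.90, 8.86 and 12.3 CPM in control S and 5.75, 6.13 and 8.60 CPM in pregnant S. SOX18 had 4.62, 8.68 and 14.5 CPM in control S, and KLF2 had 11.08, 16.6 and 28.0 CPM.

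Levels of different genes were compared per kilobase of annotated exon. In control LE the highest mean levels (± SD, n = 4) were those of KLF5 at 154 ± 42.7, SOX17 at 145 ± 19.1 and FOXO1 at 50.5 ± 7.46 CPM per kb, and FOXQ1 was among the lowest at 1.38 ± 0.858 CPM per kb. KLF5 and SOX17 lay within their spread of each other there. In pregnant LE the order was KLF5 at 387 ± 120, SOX17 at 197 ± 44.1, FOXO1 at 73.9 ± 30.8 and FOXQ1 at 52.3 ± 24.8 CPM per kb, and the last pair lay within their spread. KLF5, SOX17 and FOXO1 were also the 3 highest members in GE, at means over all gilts of 113, 111 and 86.3 CPM per kb, and in S, at 163, 134 and 65.3 CPM per kb. Lengths of KLF5, KLF9 and KLF13 count coding bases only (1374, 732 and 879), so their values per kilobase are set on shorter models than those of other members. FOXF1 and SOX6 were the lowest members in LE, at 0.417 and 0.458 CPM per kb over all gilts. KLF9, KLF13 and the endothelial KLF2 and SOX18 lay higher, at 14.1, 9.73, 20.7 and 10.3 CPM per kb in LE.

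Genes that act with these factors were described by list. Of 24 genes of the AKT and FOXO axis, all listed for LE, 5 rose and 2 fell in pregnant LE (6.33% and 3.71% of all genes), with a median log2 difference of 0.18. SOD2 (3.46), GADD45A (2.99), SGK1 (2.33), BCL6 (1.34) and CCNG2 (1.18) rose, whereas AKT2 (-1.23) and SESN3 (-0.94) fell. Over the whole list, called or not, 13 genes had a positive and 11 a negative log2 difference in LE. In GE, SOD2 was called (1.09, edgeR FDR 0.254), and in S 0 genes of this list were. At an unadjusted p below 0.05 there were 3 in S, where 1438 of all 11532 genes passed. Of 12 listed genes of the progesterone and GATA2 axis, 1 rose and 1 fell in pregnant LE (6.33% and 3.71% of all genes). INHBB, an inhibin subunit, rose (5.52) and ESR1, the estrogen receptor, fell (-1.51). Called or not, 10 of the 12 had a negative log2 difference, where 5646 of all 11415 genes did. The median was -0.38, beside 0.01 over all genes. Of 20 listed cofactors and relatives, CTBP2, a corepressor partner of KLF proteins, rose in LE (1.31). Between GE and LE, 11 of 24 genes of the AKT and FOXO axis, 4 of 11 of the progesterone axis and 5 of 19 cofactors were called (35.2% of all genes). LEF1, a partner of beta-catenin, was highest of the cofactors, at a log2 difference of 2.82.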

How the data were processed

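Laser-captured endometrial cells were sequenced from low-input libraries (Ovation SoLo). The authors deposited raw read counts per NCBI gene, 1 table for each cell type, after clipping, mapping to Sscrofa11.1 with Hisat2, removal of PCR duplicates by random bases and a filter on low CPM. The counting tool and its use of strand are not given in the sources used here. A gene not listed for a cell type was not analysed there and was never taken as 0.

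Pregnant and control libraries were compared within each cell type with the quasi-likelihood test of edgeR 4.0.16 (R 4.3.3, limma 3.58.1, TMM factors) over all listed genes. The thresholds took the study's numbers: a Benjamini-Hochberg FDR under 0.01 for LE, and for GE and S an unadjusted p under 0.0021. In the study that p value was the one matching the FDR cut-off in LE. In the fits here it was looser than the LE cut-off. SOX4 in LE, at an unadjusted p of 0.00168 (edgeR), was not called. Cell types were compared at an FDR below 0.05 in 1 joint fit of 22 libraries over 10643 genes, with the gilt as a block, because the animal number in the sample titles pairs the cell types. The deviations of same-gilt libraries from their group means had median correlations of 0.259 (LE and GE), 0.314 (LE and S) and 0.472 (GE and S). They were above 0.1 in 6 of 8, 6 of 6 and 5 of 6 gilts, and the lowest was -0.181 (GE and S). Between other gilts the medians were -0.0762, -0.137 and -0.189. Deviations from a group mean sum to 0, which pulls these values below 0, so they do not test the pairing. CPM values are counts divided by table totals times joint TMM factors and scaled to the usual unit.

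All 40 members were named. Described by library were FOXQ1, the members called for pregnancy, the 5 called members with the largest difference in each direction of each cell type contrast, and further members with known uterine, ciliary or endothelial roles. The members, the lists of related genes and the markers were chosen with earlier results of these data known. Alternatives were other size factors, filterByExpr, the likelihood ratio test, the Wald test of DESeq2 1.42.0 and other cut-offs. Others were single gilts left out, no block, and contrasts for gilts of 1 status within the joint fit. Leaving out the 4 libraries with the highest fibroblast sums was chosen after seeing the data. The scripts were tested on simulated counts with 200 changed genes. The tests of pregnancy within a cell type measure the spread between libraries, each from 1 gilt. The joint fit, with the gilt as a block, measures the spread of libraries within gilts. With 1 library per gilt and cell type, differences of animal, capture and amplification cannot be told apart.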

Additional observations from a re-analysis of the deposited data

Results flagged for a closer look

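In 8 of 94 groups of 4 libraries, 1 library stood apart from the other 3 by Dixon's criterion, and chance alone flags about 1 in 20 groups. FOXN2 was low in control LE of gilt 2 (26.8 CPM, against 37.6 to 39.4 CPM in the others) and KLF8 was low in control LE of gilt 13 (26.2 CPM, against 35.2 to 36.0 CPM). FOXP4 was high in control GE of gilt 13 (57.3 CPM, against 17.7 to 24.1 CPM) and in pregnant LE of gilt 5 (20.1 CPM, against 11.5 to 12.8 CPM). Pregnant GE of gilt 1, a library high in fibroblast and endothelial markers, was high in FOXQ1 (32.5 CPM, against 15.4 to 18.3 CPM) and in KLF4 (53.0 CPM, against 16.4 to 18.9 CPM). In pregnant GE, SOX13 was high in gilt 5 (87.9 CPM, against 60.6 to 65.2 CPM) and SOX6 in gilt 14 (132 CPM, against 30.0 to 43.6 CPM).

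The difference with pregnancy itself differed between GE and LE for 4 members by the interaction term of edgeR at an FDR below 0.05. On the log2 scale it was -3.03 for FOXQ1, 2.26 for GATA2, 1.76 for SOX12 and 1.77 for SOX13.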

How the results depend on the processing

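The direction of every call with pregnancy was kept in all alternatives. Between GE and LE 4 called members had the opposite sign when 1 status was taken alone: in control gilts FOXJ3 (0.0198), GATA2 (-0.0753) and SOX12 (-0.134), and in pregnant gilts FOXN3 (-0.0194).

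Counts of called members moved by over 1.5 times as listed here, with totals over all genes in brackets. In the main fits these totals were 1146, 81 and 170 for pregnancy in LE, GE and S. They were 3749, 856 and 0 for GE against LE, S against LE and S against GE. For the pregnancy effect they were 312 in GE against LE and 5 in S against LE. With the FDR cut-off set to 0.05, pregnancy gave 0 members (2) for GE and 0 (29) for S. At an FDR below 0.01 GE against LE gave 11 (2211), S against LE 1 (181) and the pregnancy effect in GE against LE 1 (42). With DESeq2 the counts were 2 (241) for pregnancy in GE, 8 (1518) for S against LE and 2 (302) for S against GE. DESeq2 gave 4 (305) for the pregnancy effect in S against LE. In control gilts alone the counts were 10 (1248) for GE against LE, 0 (0) for S against LE and 1 (146) for S against GE. In pregnant gilts alone S against LE gave 9 (1551). Without the 4 libraries highest in fibroblast markers, pregnancy in S gave 0 (173) and the pregnancy effect in GE against LE 2 (261). Without the replicate block, the pregnancy effect in GE against LE gave 1 (43). The other member counts moved less without the block, to 14 (2769) for GE against LE and 5 (450) for S against LE. They were 0 (0) for S against GE and 0 (0) for the pregnancy effect in S against LE.

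Leaving out 1 library or gilt at a time, the counts ranged from 3 to 7 for pregnancy in LE, 1 to 1 in GE, 0 to 1 in S, 12 to 17 for GE against LE, 1 to 6 for S against LE, 0 to 1 for S against GE, 0 to 3 for the pregnancy effect in GE against LE and 0 to 2 in S against LE. The totals over all genes in the same fits ranged from 588 to 1643, 42 to 100 and 65 to 221 for pregnancy in LE, GE and S. Between cell types they ranged from 2753 to 3980 for GE against LE, 140 to 933 for S against LE and 0 to 85 for S against GE. For the pregnancy effect they ranged from 49 to 349 in GE against LE and 0 to 126 in S against LE. The cause of these shifts was not tested, beyond the fewer samples of each smaller fit. The lowest total of 893912 counts, in pregnant LE of gilt 1, limits members of a few CPM most.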
